A study of Mus musculus with 6 samples.

Results

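Sox6 peaks that were called in only 1 of 2 chromatin immunoprecipitation sequencing (ChIP-seq) experiments on mouse fetal myotubes are described here. They were chosen by position: a peak of one replicate was taken when no peak of the other replicate lay within 50 bp of it. Of 2888 peaks listed for replicate 1, 1859 (64.4%) had no such partner and are called replicate 1 only peaks. Of 1734 peaks listed for replicate 2, 706 (40.7%) had none and are called replicate 2 only peaks. Together these 2565 one-replicate peaks made up 55.5% of the 4622 peaks in both lists. The other 1029 peaks of replicate 1 and 1028 of replicate 2 are called shared.

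The cells were primary myoblasts from limbs of C57BL/6 mouse fetuses at embryonic day E18.5, passage 17, differentiated into myotubes for 48 h in medium with horse serum. No gene was altered, and all libraries came from the same kind of culture, so there was no second condition. Chromatin was fixed with disuccinimidyl glutarate and then formaldehyde and immunoprecipitated with a rabbit polyclonal Sox6 antibody (2 replicates) or with the 4H8 antibody to the C-terminal repeat of RNA polymerase II (Pol II, 2 replicates). Input DNA, the chromatin before immunoprecipitation, was sequenced for each replicate number (2 replicates). The Sox6 libraries held 2985437 and 1468604 uniquely mapped reads, so replicate 1 was 2.03 times as deep as replicate 2. The Pol II libraries held 1538757 and 2762155 reads and the inputs 21973495 and 24249850.

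Sox6 is a transcription factor of the Sox family, which binds DNA through an HMG box. It has no activation or repression domain of its own and acts through the proteins it binds together with. In cartilage it works with Sox5 and Sox9 in activation, and in skeletal muscle it is known for keeping slow fibre genes off while fast fibres form. In muscle the E-box is the site of the MyoD family of myogenic factors, the MCAT element is the site of Tead factors, and Runx factors bind a short core of their own.

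Pol II on marker genes was that of muscle. In RPKM (RPM per kilobase of gene, where RPM is reads per 1000000 mapped reads), Pol II replicates 1 and 2 gave 53.6 and 59.1 on Myog, the myogenic factor of differentiation, and 73.3 and 77.8 on Myh3, the embryonic myosin heavy chain, with input below 1 RPKM on both. Over the fibroblast markers Col1a1, Col3a1, Pdgfra, Thy1 and Dcn, Pol II lay between 0.0846 and 0.766 RPKM and input between 0.238 and 0.594 RPKM, with Pol II above input on Thy1 in both replicates and on Col1a1 in replicate 1. On Alb, Apoa1, Hbb-b1 and Ptprc, genes of liver and blood, Pol II lay between 0 and 0.344 RPKM and input between 0.0589 and 0.595 RPKM. The part of other cells in the Sox6 peaks was not tested.

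Sequences of 7 one-replicate peaks are shown so that the motif matches counted further on can be read in place. They are peaks of 7 listed muscle, regulatory and control genes, among those whose reads in the replicate without a call stood highest over input. Each is the 200 bases around the peak centre, read 5′ to 3′ on the plus strand of NCBI Build 37 (mm9). Capitals mark matches, on either strand, to a Sox motif (ACAAAG or ACAATG), an E-box (CAGCTG or CAGGTG), a Runx motif (CCACA) or a Tead motif (GGAATG).
Myh8, chr11:67127401-67127600: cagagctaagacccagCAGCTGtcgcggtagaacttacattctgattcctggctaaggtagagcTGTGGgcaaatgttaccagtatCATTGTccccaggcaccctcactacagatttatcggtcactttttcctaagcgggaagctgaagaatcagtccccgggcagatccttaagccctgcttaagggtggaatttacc
Msc, chr1:14765451-14765650: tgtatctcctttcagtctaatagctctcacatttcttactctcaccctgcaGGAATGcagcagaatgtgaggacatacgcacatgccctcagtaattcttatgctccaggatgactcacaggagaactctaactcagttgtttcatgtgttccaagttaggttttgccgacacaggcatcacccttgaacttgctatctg
Col11a2, chr17:34205961-34206160: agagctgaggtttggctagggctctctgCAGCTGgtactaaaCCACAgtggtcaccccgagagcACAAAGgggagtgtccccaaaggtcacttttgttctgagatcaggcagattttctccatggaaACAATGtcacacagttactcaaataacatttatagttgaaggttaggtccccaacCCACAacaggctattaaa
Acta2, chr19:34329971-34330170: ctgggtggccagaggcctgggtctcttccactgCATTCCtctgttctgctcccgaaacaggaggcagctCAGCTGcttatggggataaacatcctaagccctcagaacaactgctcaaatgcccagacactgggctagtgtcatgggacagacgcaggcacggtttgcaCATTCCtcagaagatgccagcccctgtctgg
Jph2, chr2:163170771-163170970: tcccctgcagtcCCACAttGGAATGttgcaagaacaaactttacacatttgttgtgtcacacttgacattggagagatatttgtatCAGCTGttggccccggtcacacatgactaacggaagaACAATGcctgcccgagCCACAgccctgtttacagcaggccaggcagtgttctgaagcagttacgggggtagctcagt
Casq2, chr3:101904321-101904520: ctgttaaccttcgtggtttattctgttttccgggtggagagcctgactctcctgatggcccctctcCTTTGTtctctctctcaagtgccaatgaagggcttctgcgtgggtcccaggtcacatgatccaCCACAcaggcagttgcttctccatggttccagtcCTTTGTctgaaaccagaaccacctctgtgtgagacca
Myf5, chr10:106911441-106911640: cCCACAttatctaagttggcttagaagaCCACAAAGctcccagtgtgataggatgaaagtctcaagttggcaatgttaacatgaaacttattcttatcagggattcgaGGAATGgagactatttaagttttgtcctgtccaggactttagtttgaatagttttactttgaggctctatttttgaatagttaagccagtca

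Of these 7 windows, 5 held a Sox match, 4 held an E-box, 5 a Runx match and 4 a Tead match. The window beside Myh8, the perinatal myosin heavy chain gene, held 1 Sox match at base 87 from its left end, 1 E-box and 1 Runx match. That in Jph2, the junctophilin 2 gene, held 2 Runx matches and 1 match to each of the other motifs. The window upstream of Msc, which codes for the repressor musculin, held a Tead match and no other. A replicate 2 only peak lies 60 bp from that Msc peak. Its own window of 200 bases, not shown, held 1 Sox match, 2 E-boxes, 1 Runx match and 1 Tead match. These matches are letters in a window and not shown to be bound.

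The first question was how the replicate that did not call a peak looked at that place. Reads whose 5′ end lay within 450 bp windows around peak centres were counted, and scaled to library size as RPM. At replicate 1 only peaks, the median was 10 reads in Sox6 replicate 1 (3.35 RPM), which called them, and 3 reads in Sox6 replicate 2 (2.04 RPM), which did not. Input held 10 and 12 reads there, which is 0.455 and 0.495 RPM. At replicate 2 only peaks, the median was 7 reads in Sox6 replicate 2 (4.77 RPM) and 6 reads in Sox6 replicate 1 (2.01 RPM), against 0.410 and 0.454 RPM in the inputs. Shared peaks had higher medians, 5.02 RPM in the first Sox6 library and 6.13 RPM in the second. The level of the library without a call lay between the flanks, at 0.335 and 0.340 RPM in windows 2 kb away, and the shared peaks.

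**Figure D1:**
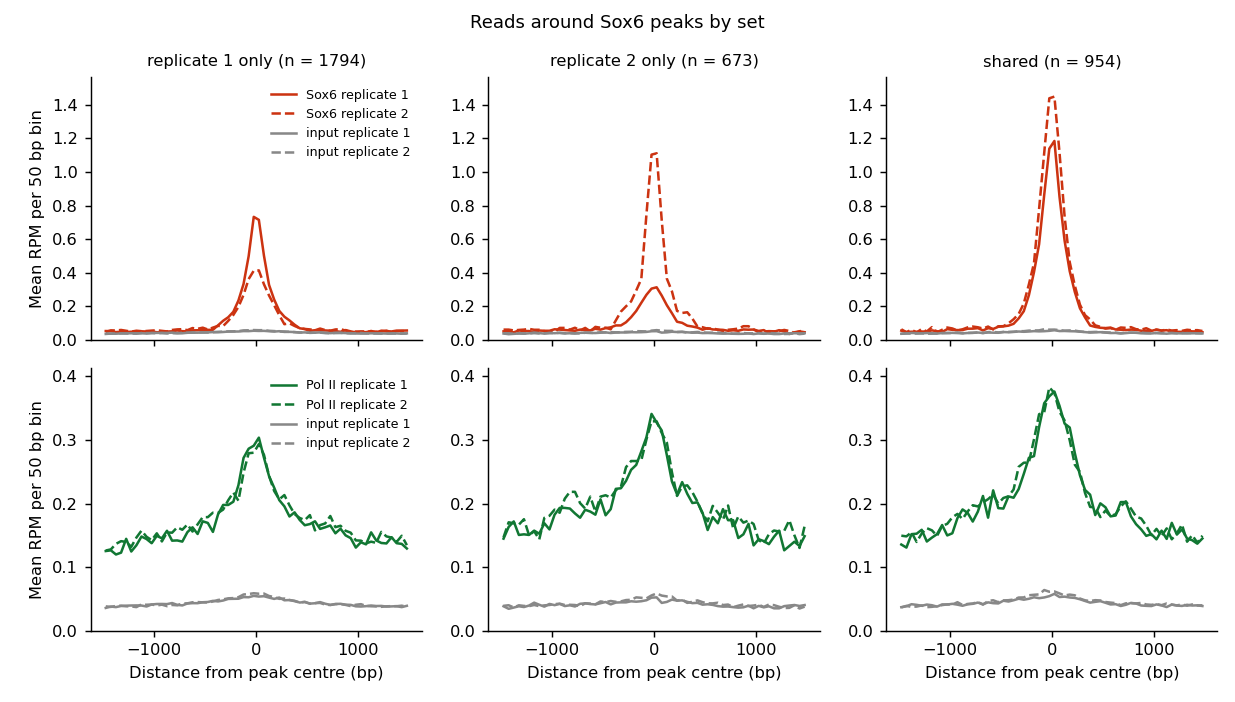
Mean RPM in bins of 50 bp (vertical axes) against distance from the peak centre (horizontal axes), with Sox6 and input in the upper panels and Pol II and input in the lower ones; reads were moved by 75 bp towards their 3′ end, and windows with more than 41 reads of both inputs were left out. Within 50 bp of replicate 1 only peaks, Sox6 replicate 2 reached 0.413 RPM per bin against 0.0527 RPM at 1 to 1.5 kb, and at replicate 2 only peaks Sox6 replicate 1 reached 0.310 against 0.0506 RPM.

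Sox6 exceeded input in the library without a call at many of the members. Against the input of the same number, by a binomial test (exact, two-sided, Benjamini-Hochberg adjustment over the whole calling list), 959 of 1859 replicate 1 only peaks (51.6%, exact 95% interval 49.3 to 53.9) had more Sox6 than input in replicate 2, and 0 had less. Over all replicate 1 peaks, shared ones included, the share was 67%. Of the 706 replicate 2 only peaks, 455 (64.4%, 60.8 to 68.0) had more Sox6 than input in replicate 1, where the share over all replicate 2 peaks was 84.4%. Both counts include members with a called peak of the other list just past the 50 bp limit. With such a peak 51 to 99 bp away, 36 of 38 replicate 1 only and 35 of 38 replicate 2 only peaks passed. With the nearest more than 10 kb away, 802 of 1605 and 333 of 524 did. The rule used the absence of a call in this same library, so these counts describe the members and nothing is read from them as a test. The binomial test covers counting error only and not the spread between replicates. It also takes reads as independent, which PCR copies are not. Without adjustment, 56.8% and 67.1% of the one-replicate peaks lay under a p of 0.05 by this binomial test. Over all peaks of the lists 70.9% and 85.6% did, and 4.64% and 7.21% of windows placed 2 kb before every peak of the lists. In the deposited intervals alone, which are narrower, 292 and 137 peaks passed, and in windows of 200 bp 563 and 300. With libraries scaled by the reads in windows 2 kb away, in place of all reads, the count of replicate 2 only peaks was 23, and 377 once the 5% of windows with most input were left out.

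In the library without a call, Sox6 over input had a median log2 ratio, with 0.5 reads added to both, of 2.38 at replicate 1 only peaks (quartiles 1.72 and 2.98) and 2.14 at replicate 2 only peaks (1.49 and 2.76). At shared peaks it was 3.66 and 3.38 in the same libraries. In the windows 2 kb before, it was 0.88 and 0.56. The 0.5 reads added weigh more in the shallower library, and their part in these values was not tested. Ratios above 0 were found at 1779 replicate 1 only peaks (95.7%) and 684 replicate 2 only peaks (96.9%). Over all peaks of the lists, shared ones included, the shares were near these, at 96.3% and 98.5%. In the windows 2 kb before they were 72% and 63.3%. No Sox6 read at all was found in the library without a call at 92 replicate 1 only peaks (4.95%) and 11 replicate 2 only peaks (1.56%). At these depths a count of 0 allows up to 3 reads, so a weak signal was not detectable there.

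**Figure D2:**
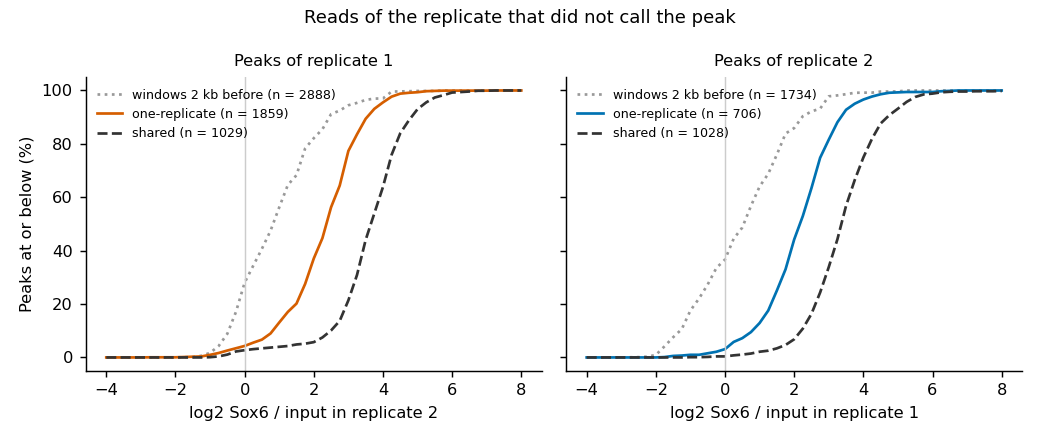
Cumulative share of peaks (vertical axis, percent) by their log2 ratio of Sox6 to input in the other replicate (horizontal axis), for one-replicate peaks, shared peaks and windows 2 kb before every peak of the list. The medians for one-replicate peaks, 2.38 and 2.14, lie between those of the windows, 0.88 and 0.56, and those of shared peaks, 3.66 and 3.38.

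Read direction was read at the same places. Around a bound site, reads on the plus strand start to its left and reads on the minus strand to its right, and SISSRs calls peaks from this switch. At replicate 1 only peaks, 82.1% of Sox6 replicate 1 reads pointed at the centre, and 65.2% of the 6860 Sox6 replicate 2 reads did so (exact 95% interval 64.0 to 66.3). At replicate 2 only peaks the shares were 86.6% in Sox6 replicate 2 and 65.4% of 4313 reads in Sox6 replicate 1 (64.0 to 66.8). In the windows 2 kb before, the libraries without a call had 46.7% and 47.3%. The inputs had between 51.3% and 54.3% at the peaks themselves, and Pol II between 55% and 56.2%. Shared peaks of replicate 1 had 60.6% and 62.7% in Sox6 replicates 1 and 2, on reads of which 50% and 33.1% were repeated positions. The peak caller uses this switch, so the shares in both the calling and the other library depend on the choice of the members and are a description.

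The share of one-replicate peaks was highest among peaks with few reads. Among replicate 1 peaks with 6 to 9 Sox6 reads in the window, 791 of 947 (83.5%) had no partner, and among those with 15 to 24 reads, 193 of 555 (34.8%). None of the 45 replicate 1 peaks with 50 or more reads was a one-replicate peak, and 8 of 137 with 25 to 49 reads were. In the shallower replicate 2, 441 of 885 peaks with 6 to 9 reads (49.8%) and 8 of 146 with 15 to 24 reads (5.48%) had no partner. The reads in the calling replicate took part in the choice of the members, and these shares are given as a description. The share of replicate 1 only peaks that passed the binomial threshold in replicate 2 went from 43.2% at 6 to 9 reads to 68.9% at 15 to 24 reads.

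**Figure D3:**
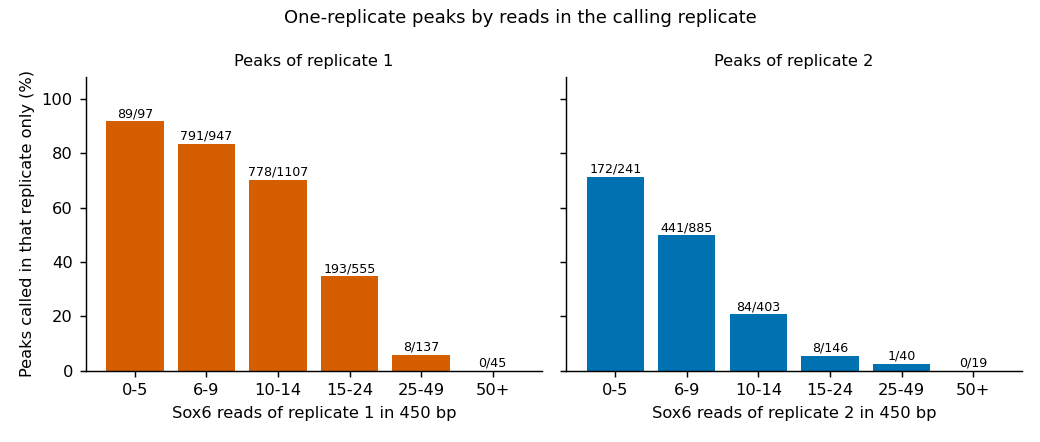
Share of peaks called in that replicate only (vertical axis, percent) by the number of Sox6 reads of the calling replicate in the 450 bp window (horizontal axis), with one-replicate peaks over all peaks above each bar. The share falls from 91.8% to 0% in replicate 1 and from 71.4% to 0% in replicate 2.

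Most one-replicate peaks were far from any peak of the other list. At 1778 replicate 1 only peaks (95.6%) and 628 replicate 2 only peaks (89.0%), the nearest peak of the other list was more than 450 bp away. Just outside the limit, 38 peaks of each list had a partner at 51 to 99 bp, with medians of 9.5 and 6.5 reads in Sox6 replicates 1 and 2 for the replicate 1 peaks. Just inside it, 82 peaks of each list had a partner at 20 to 50 bp, with medians of 12 and 8 reads. The deposited list of common peaks holds a peak within 50 bp of 38 replicate 1 only and 38 replicate 2 only peaks, and no member shares a base with it. With a limit of 100 bp in place of 50 bp, 1804 and 652 peaks would have been left without a partner. Within 10 kb of a shared peak lay 127 replicate 1 only peaks (6.83%) and 68 replicate 2 only peaks (9.63%).

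Among peaks with at least 10 Sox6 reads in the library without a call, the 5 of each set with the largest ratio to input there were taken. Some peaks with fewer reads, such as those of Myh8 and Six2, had larger ratios and no near partner. Of the 5 replicate 1 only peaks, near Hecw2, Socs1, D4Bwg0951e, Msc and Reep3, all had a replicate 2 peak 60 to 140 bp away. The peak downstream of Socs1, an inhibitor of cytokine signalling, held 7 and 12 Sox6 reads in replicates 1 and 2 against 7 and 10 input reads. That in the first intron of D4Bwg0951e held 14 and 17 Sox6 reads against 2 and 15. Of the 5 replicate 2 only peaks, those near Tcp11l2, Shroom3 and Ahnak had a replicate 1 peak 80 to 160 bp away. For those of Hspa1b and Rap2b the nearest lay 585860 and 235460 bp away. The deposited list of common peaks holds a peak 10 bp from the Hecw2 and Msc peaks. It also holds a peak 30 bp from those of D4Bwg0951e, Tcp11l2 and Ahnak. The Ahnak peak, in intron 4 of the gene of a large membrane scaffold protein, held 31 and 8 reads of Sox6 against 9 and 11 of input.

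The Hspa1b peak (chr17:35094512-35094551) lies in the single coding exon of a heat shock protein 70 gene. It held 16 and 33 reads of Sox6, 17 and 27 of Pol II and 1 and 0 of input. Hspa1b has a near-identical neighbouring copy, so the assignment of reads between the copies is uncertain. The Six2 peak, 117 bp upstream of the gene of a homeobox factor, held 4 and 11 reads of Sox6 and 2 and 1 of Pol II, and no input read in either library. The replicate 2 only peaks with the largest ratio in the replicate that called them (Hspa1b, Six2, Acacb, Gse1 and Nckap5l) had 0 to 4 reads in input 2, where the median was 11. The 5 such replicate 1 only peaks (Stk32b, Nt5e, 5330411J11Rik, 4930554H23Rik and Tasp1) had 1 or 2 reads in input 1 and 5 to 12 in input 2, against medians of 10 and 12. The input of the calling replicate is the denominator of this ratio, so ranking by it selects windows with few reads in that input. At Hspa1b and Six2 the other input was low too, while at Gse1 it held 9 reads. The part of input depth in these ratios was not tested.

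The next question was where the one-replicate peaks lie. In this and the motif comparisons, peaks and not samples are counted. In the tests against shared peaks, of location, motifs and nearness to Pol II peaks, both sets were compared with the 1029 of replicate 1. Peak centres were placed relative to the longest model of each of 23061 genes. Introns held 953 replicate 1 only peaks (51.3%, exact 95% interval 49 to 53.6) and 368 replicate 2 only peaks (52.1%, 48.4 to 55.9), against 529 of 1029 shared peaks (51.4%). The first intron alone held 16.6% and 19.1%, against 16.1% of shared peaks. More than 20 kb from any gene lay 27.1% and 24.9% of the one-replicate peaks and 25.3% of the shared ones. Within 1 kb of a gene start lay 30 replicate 1 only peaks (1.61%) and 17 replicate 2 only peaks (2.41%), against 23 shared peaks (2.24%). With the starts of all transcripts in place of the longest model, these shares were 4.25%, 6.80% and 6.22%. On a 1 kb grid over the genome, introns held 36.4% of positions, first introns 9.82%, intergenic regions 45.2% and the 1 kb around gene starts 1.58%.

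None of the 20 comparisons of location with shared peaks (10 locations, some of them nested, in both sets) passed an adjusted p of 0.05 by Fisher's exact test, two-sided, and 2 had an unadjusted p under 0.05. The smallest adjusted p was 0.151, for exons, which held 38 replicate 1 only peaks (2.04%, 1.45 to 2.79) and 39 shared ones (3.79%, 2.71 to 5.14). Of the exonic one-replicate centres, 28 lay in a 3′ UTR, 4 in a 5′ UTR and 26 in coding exons. Between 1 and 20 kb upstream lay 47 replicate 2 only peaks (6.66%) and 100 shared peaks (9.72%), with an adjusted p of 0.280. These tests do not show that the sets lie alike, and the intervals give the room left.

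**Figure D4:**
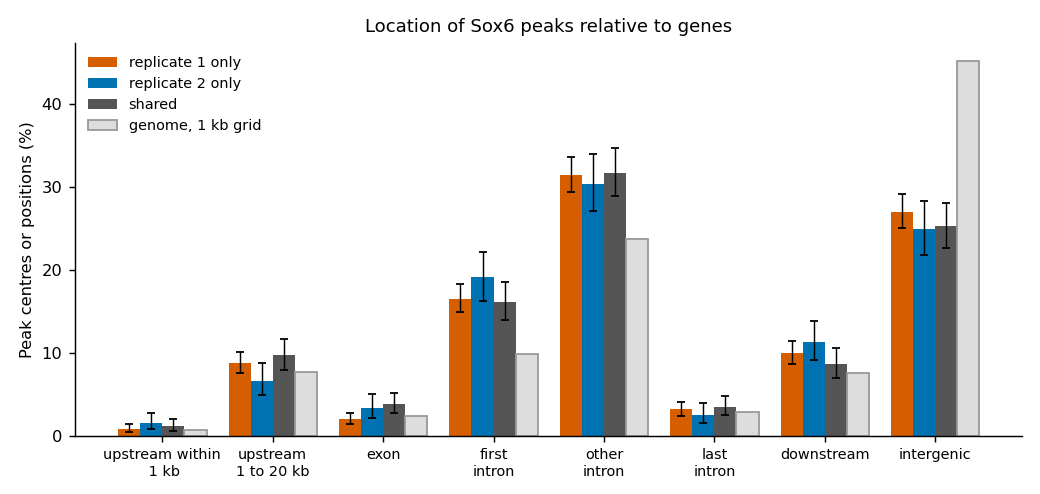
Share of peak centres (vertical axis, percent) in 8 locations relative to genes for replicate 1 only, replicate 2 only and shared peaks, with exact 95% binomial intervals as error bars, and the share of positions on a 1 kb grid of the genome. First introns held 16.6%, 19.1% and 16.1% of the 3 sets and 9.82% of the grid, and intergenic regions 27.1%, 24.9% and 25.3% against 45.2%.

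The X chromosome, with 6.28% of the genome's length, held 23 replicate 1 only peaks (1.24%), 13 replicate 2 only peaks (1.84%) and 11 shared peaks (1.07%). Chromosome 11, with 4.59% of the length, held 6.35% and 6.80% of the one-replicate peaks and 7.68% of the shared ones. The distance from centre to gene start had a median of 49929 bp at replicate 1 only, 44359 bp at replicate 2 only and 45284 bp at shared peaks.

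One-replicate peaks carried a Sox motif less often than shared peaks, while E-boxes showed no difference past the threshold in windows of equal length. Within 100 bp of the centre, 792 of 1859 replicate 1 only peaks (42.6%, 40.3 to 44.9) and 313 of 706 replicate 2 only peaks (44.3%, 40.6 to 48.1) held a Sox match, against 560 of 1029 shared peaks (54.4%). The odds ratios were 0.62 and 0.67 (adjusted p = 2.13e-09 and 6.4e-05 by two-sided Fisher's exact tests, 16 in all). The sets also differ in Sox6 reads through the rule, and the part of this in the motif shares was not tested. Sox shares at like numbers of reads are given further on. E-boxes were present in 60% (57.8 to 62.3) and 62.5% (58.8 to 66.0), against 61.4% of shared peaks, with odds ratios of 0.94 and 1.05 and adjusted p of 0.584 and 0.687 by the same exact test.

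All 4 motifs were more frequent at one-replicate peaks than in windows of the same length 2 kb to either side. Sox matches were found in 27.0% and 26.0% of those windows, with odds ratios of 2.00 and 2.27 (Fisher's exact test, adjusted p = 1.35e-30 and 9.54e-17). E-boxes had the largest odds ratios, 5.28 and 6.09, against windows with 22.2% and 21.5%. The Runx motif was present in 68.9% and 66.7% of one-replicate peaks against 46.0% and 43.6% of windows, with odds ratios of 2.59 and 2.60. It did not differ from shared peaks (67.7%) beyond the test's threshold, at adjusted p of 0.638 and 0.687 by the same exact test.

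The Tead motif passed the threshold against shared peaks in 1 of the 2 sets. Replicate 2 only peaks held it in 31.9% (28.4 to 35.4) against 25.9% of shared peaks (odds ratio 1.34, Fisher's exact test, adjusted p = 0.0115). Replicate 1 only peaks held it in 24.4% (22.4 to 26.4, odds ratio 0.92, adjusted p = 0.461, same exact test). The difference between the 2 sets itself was not tested. The median GC content of the windows was 47.5% at replicate 1 only and at shared peaks and 49.5% at replicate 2 only peaks. The windows 2 kb away had lower medians, 44.5% around replicate 1 only and 46% around replicate 2 only peaks, and the part of GC content in the motif shares was not tested.

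The deposited intervals gave other results for 3 of the 4 motifs, and whether their width accounts for this was not tested. One-replicate peaks were listed with narrower intervals, with a median width of 100 bp and 80 bp, against 120 bp and 100 bp for the shared peaks of the same lists. Both sets were tested against the shared peaks of replicate 1, so replicate 2 only intervals with a median of 80 bp stood against 120 bp. Within the deposited intervals, E-boxes were less frequent in replicate 1 only (40.5%) and replicate 2 only peaks (39.8%) than in shared ones (47.8%), with adjusted p of 0.000188 and 0.00113 by Fisher's exact test. Runx and Tead motifs were also less frequent in replicate 1 only peaks than in shared ones, with odds ratios of 0.81 and 0.70, and Runx in replicate 2 only peaks, with 0.62. The Tead share of replicate 2 only peaks was then 19.7% against 21.7%, and the call ended. The Sox difference passed in the equal windows of 50 and 100 bp on each side and in the intervals.

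**Figure D5:**
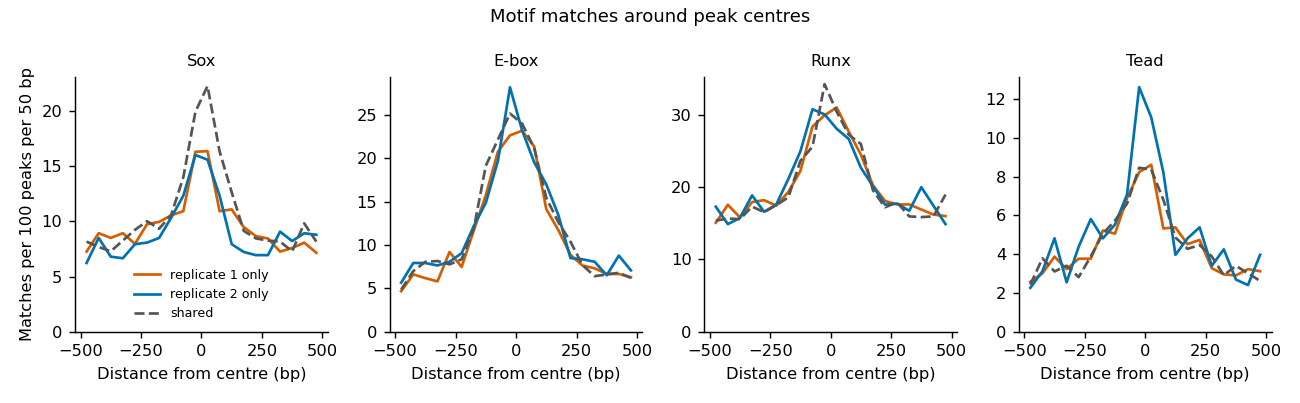
Matches per 100 peaks in bins of 50 bp (vertical axes) by distance from the peak centre (horizontal axes) for the 4 motifs in replicate 1 only, replicate 2 only and shared peaks. Within 50 bp of the centre there were 32.4, 31.3 and 42.0 Sox matches per 100 peaks and 45.5, 50.7 and 49 E-box matches.

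Motif matches gathered at the centre. Within 50 bp of it there were 602 Sox matches at replicate 1 only peaks, against 275 at 450 to 500 bp on both sides, a zone of the same length. At replicate 2 only peaks there were 221 and 109. For E-boxes the numbers were 845 and 207, and 358 and 91. Both a Sox match and an E-box lay within 100 bp of 462 replicate 1 only peaks (24.9%), 193 replicate 2 only peaks (27.3%) and 350 shared peaks (34.0%). None of the 4 motifs was found at 6.19%, 6.09% and 6.80% of the 3 sets.

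The Sox share rose with the reads among peaks of replicate 1. Among replicate 1 only peaks it was 38.5% at up to 9 reads in Sox6 replicate 1, 45.6% at 10 to 14 reads and 49.2% at 15 to 24 reads. Shared peaks with the same numbers of reads had 47.6%, 49.5% and 58.8%. Among replicate 2 only peaks the share was 43.9% (39.9 to 47.9) at up to 9 reads in Sox6 replicate 2. At 10 to 14 reads it was 47.6% (36.6 to 58.8). Shared peaks of replicate 2 had 49.9% and 63.3% at these reads, 64.5% at 15 to 24 reads and 48.3% at 25 or more. Replicate 1 only peaks that passed the binomial threshold in replicate 2 held a Sox match in 45.9% (42.7 to 49.1) and an E-box in 64.7%, and the others in 39.1% (35.9 to 42.4) and 55.1%. For replicate 2 only peaks the Sox shares were 48.1% and 37.5%. The groups were formed by the reads that chose the members, so these shares are a description.

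Pol II was read next, because the rule did not use it. The inputs it is set against were the background when the Sox6 peaks were called. In 450 bp windows the mean was 2.32 and 2.28 RPM in Pol II replicates 1 and 2 at replicate 1 only peaks, against 0.493 and 0.535 RPM in the inputs. At replicate 2 only peaks it was 2.63 and 2.66 RPM, against 0.530 and 0.608 RPM. In windows 2 kb away, Pol II had 1.09 and 1.12 RPM around the first set and 1.25 and 1.34 RPM around the second. That made Pol II 1.98 to 2.14 times its flanks at both sets. Input was also above its flanks, by 1.44 and 1.53 times at replicate 1 only peaks and by 1.31 and 1.35 times at replicate 2 only peaks.

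By limma with a trend, on log2 RPM with 0.5 reads added per library and Benjamini-Hochberg adjustment over all 3594 Sox6 sites, 1368 of 2565 one-replicate peaks (53.3%) had more Pol II than input, and over all sites 54.4% did. The count was 963 of replicate 1 only peaks (51.8%), 405 of replicate 2 only peaks (57.4%) and 587 of shared peaks (57.0%). Less Pol II than input was found at 13 one-replicate peaks. Windows 2 kb before the one-replicate peaks, a comparison added after the values were seen, gave 639 calls of more Pol II (24.9%) and 3 of less with the same test. The number rests on the small reads added to each library: with 0.1 RPM added in every library, it was 899 one-replicate peaks with more Pol II and 144 with less, and with 2 reads added it was 2328. With 0.1 RPM added, the windows 2 kb before had 318 calls of more Pol II (12.4%) and 647 of less, so their balance turned round. It was 814 when input replicate 1 was left out and 908 when input replicate 2 was.

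The share of peaks called for Pol II is given by location, with no test between locations. Within 1 kb of a gene start, 39 of 47 one-replicate peaks (83.0%) had more Pol II than input by limma, with a median log2 ratio of 3.03. In the first intron, 267 of 443 (60.3%) did, and in intergenic regions 274 of 679 (40.4%), with a median of 1.24. Shared peaks had 16 of 23 (69.6%) at gene starts, 73.5% in first introns and 40.0% in intergenic regions.

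Peaks of Pol II replicate 2 lay within 1 kb of 502 replicate 1 only peaks (27.0%, 25 to 29.1), less often than of shared peaks (368 of 1029, 35.8%). The odds ratio was 0.66, with an adjusted p of 2.19e-06 over both sets by Fisher's exact test. Of the replicate 2 only peaks, 229 (32.4%, 29.0 to 36.0) had one, with an odds ratio of 0.86 and adjusted p = 0.165 by the same exact test. With the Pol II peaks of replicate 1, the shares were 19.5%, 24.9% and 28.7% for replicate 1 only, replicate 2 only and shared peaks. Here too, peaks and not samples were counted. The sets also differ in Sox6 reads through the rule, and the part of this in the shares was not tested.

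By gene, the one-replicate peaks went to 1804 genes, of which 353 also had a shared peak and 1451 had none. These 1451 are 6.29% of the 23061 genes used. In 152 of them, peaks of both one-replicate sets were present. Gene length differed between these groups: the median was 50675 bp for the 1451 genes, 64315 bp for genes with a shared peak and 15180 bp for all genes, and its part in the counts was not tested. The gene lists used here were chosen with results of these data known.

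Sarcomere genes were represented in both kinds, and their counts stand beside the 6.29% of all genes that had one-replicate peaks only. Of 25 genes of the Z-disc, M-band and giant proteins, 9 had one-replicate peaks only (36.0%), among them Ttn and Neb, the giant proteins that set filament length, Flnc and Myom3. Of 18 troponin, tropomyosin and actin genes, 4 had one-replicate peaks only (Acta1, Acta2, Actc1 and Tnnt3), 4 had both kinds and 4 had shared peaks only. Of 11 genes of myosin light chains and myosin binding proteins, 3 had one-replicate peaks only (Mybpc1, Mybph and Myl1). Of 9 myosin heavy chain genes, this was so for 1, Myh8, while Myh3, Myh7 and Myh7b had both kinds. The median gene length of the Z-disc list was 55850 bp, and that of the actin and troponin list 11410.5 bp.

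The peak listed under Myh8 (chr11:67127452-67127551) is replicate 1 only and lies between Myh8 and Myh13, 5365 bp past the end of the first and upstream of the second. It held 17 Sox6 reads in replicate 1 and 7 in replicate 2, 3 and 5 reads of Pol II, and 7 and 3 of input. Over input, on the log2 scale, Sox6 stood at 4.10 in replicate 1 and at 5.14 in replicate 2, which did not call it. The peak was named for this ratio, and input 2 held 3 reads where the median was 12. Myh13, the extraocular myosin heavy chain (chr11:67135160-67185088), begins 7609 bp from the peak. The assignment to Myh8 rests on the shorter distance alone, and the peak could as well be listed under Myh13, to which the nearest gene rule gave no peak.

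Mybph codes for myosin binding protein H. Its replicate 1 only peak in intron 3 (chr1:136092592-136093011) held 12 and 5 reads of Sox6 against 9 and 12 of input, a log2 ratio of 2.86 in replicate 2. Pol II was high, with 54 and 99 reads and a log2 ratio of 6.24 (limma, SE 0.32, adjusted p = 3.44e-12). The replicate 2 only peak of Actc1, the cardiac alpha actin, lies 378 bp upstream of the gene start (chr2:113878912-113879091). There Sox6 had 3 and 12 reads, Pol II 13 and 10 and input 3 and 11, and the ratio in replicate 1 was 2.88.

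Acta2, the smooth muscle alpha actin, had a replicate 1 only peak 245 bp upstream of the gene (chr19:34330052-34330091). It held 10 and 7 reads of Sox6, 16 and 28 of Pol II and 10 and 11 of input, and a second replicate 1 only peak lies 1155 bp upstream. The ratio in replicate 2 was 3.43 at the first and 1.72 at the second. Acta1, the skeletal alpha actin, had 1 peak 2398 bp past its end with 10 and 3 reads of Sox6 against 10 and 15 of input, a ratio of 1.90 in replicate 2. These ratios rest on 3 to 7 reads, those of Actc1 and of the other actin genes come from different libraries, and no difference between the genes was tested.

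Myom3 codes for the M-band protein myomesin 3, and its 2 one-replicate peaks came from different replicates. The replicate 1 only peak 219 bp upstream held 7 and 6 reads of Sox6 against 10 and 15 of input. The replicate 2 only peak in intron 5 held 1 and 4 Sox6 reads against 1 and 10, so a single read stands behind its ratio in replicate 1. Flnc, filamin C, also had 1 of each kind, in introns 46 and 10, with 7 and 2 and with 3 and 3 Sox6 reads. Its windows held 15 and 34 and 18 and 30 Pol II reads. At Ttn, the peak 2167 bp upstream held 10 and 4 Sox6 reads, and that 907 bp upstream held 8 and 1. At Neb, the peak 12493 bp upstream held 16 and 3 reads of Sox6 and 0 and 7 of Pol II, against 7 and 12 of input.

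Genes of calcium handling and of the membrane followed. Of 19 genes of calcium release, uptake and the triad, 7 had one-replicate peaks only (36.8%), and of 13 of the dystrophin complex and membrane repair, 5 did (38.5%), beside 6.29% of all genes. Their median gene lengths were 54238 bp and 57967 bp. The nearest gene rule set no limit of distance. The Utrn peak lay 460045 bp outside its gene, and those of Sntb1 60127, 69097 and 136567 bp. Jph2, junctophilin 2, which ties the calcium store to the surface membrane, had a replicate 2 only peak in intron 3 (chr2:163170852-163170891) with 6 and 10 reads of Sox6, 11 and 15 of Pol II and 5 and 15 of input. The ratio was 3.48 in replicate 2 and 3.12 in replicate 1, which did not call it. Casq2, the cardiac and slow fibre calsequestrin that stores calcium, had 3 replicate 2 only peaks in introns 1 and 2 and no replicate 1 peak. They held 8 and 5, 3 and 3, and 2 and 8 Sox6 reads, with ratios in replicate 1 of 3.06, 1.78 and 2.03.

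Sspn, sarcospan, had 4 replicate 1 only peaks, 1 of them in intron 2 and 3 past the end of the gene at 13188, 41188 and 45408 bp. The peak in the intron held 13 and 1 Sox6 reads, and its ratio in replicate 2 was -0.56. The other 3 held 9 to 11 reads in replicate 1 and 4 or 5 in replicate 2, with ratios of 2.01 to 2.98. Cacna2d1, a subunit of the calcium channel of the triad, had 4 replicate 1 only peaks, and the one in intron 3 with the most reads, 11 in replicate 1, had 0 in replicate 2.

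Among 40 myogenic and fibre type transcription factors, 6 had one-replicate peaks only (15%, beside 6.29% of all genes: Id2, Mef2a, Msc, Myf5, Myog and Runx2), 8 had both kinds, among them Prox1, Sox6 itself and Tead4, and 24 had no peak. The Id2 peak lay 494424 bp outside its gene, as the nearest gene rule set no limit of distance. Msc, a repressor of the MyoD family's targets, had 4 one-replicate peaks between 14664 and 19504 bp upstream. The replicate 1 peak at chr1:14765512-14765591 and the replicate 2 peak at chr1:14765412-14765451 lie 60 bp apart, so each counts as a member by the 50 bp rule. Both lie 10 bp from a peak of the deposited common list, and the called peak of the other replicate is within each window. Their windows held 13 and 11 and 14 and 9 Sox6 reads. A replicate 1 only peak 14664 bp upstream held 17 and 9 reads of Sox6, 8 and 6 of Pol II and 11 and 12 of input, with a ratio of 3.65 in replicate 2.

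Myf5, the earliest of the MyoD family in the embryo, had a replicate 1 only peak 8423 bp past its end (chr10:106911412-106911671) with 6 and 6 reads of Sox6 against 13 and 13 of input. The ratio was 1.83 in replicate 1 and 2.99 in replicate 2, on equal reads in libraries of unlike depth. The gene was named for the second ratio, and no difference between the libraries was tested. Pol II held 0 and 1 read there, which did not differ from input by limma (log2 ratio -0.48, SE 0.82, adjusted p = 0.652). The Mef2a peak in intron 2 held 10 and 2 Sox6 reads, and the Runx2 peak in intron 5, replicate 2 only, 3 and 4.

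Of 13 genes of fusion and adhesion found in the annotation, 4 (30.8%, beside 6.29% of all genes) had one-replicate peaks only: Tmem8c, Cdh15, Cdh2 and Dock5. The median length of the list's genes was 51806 bp, against 15180 bp for all genes. Tmem8c codes for myomaker, the membrane protein of myoblast fusion. Its replicate 2 only peak lies 2395 bp past the gene (chr2:26914732-26914791) and held 8 and 8 reads of Sox6, 24 and 63 of Pol II and 10 and 8 of input. The ratio was 4.05 in replicate 2 and 2.57 in replicate 1, and Pol II was above input by a log2 ratio of 5.55 (limma, SE 0.36, adjusted p = 1.24e-10). Cdh15, M-cadherin, had 2 replicate 2 only peaks in its first intron. The first held 6 and 9 reads of Sox6 and 20 and 40 of Pol II, and the second 4 and 5 of Sox6 and 33 and 78 of Pol II.

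Musk, the receptor kinase of the neuromuscular junction, was the 1 gene of 11 of the synapse list with one-replicate peaks only (9.09%, beside 6.29% of all genes). Its replicate 1 only peak in intron 1 held 10 and 3 reads of Sox6 and 11 and 18 of Pol II, and its replicate 2 only peak in intron 5 held 9 and 5 reads of Sox6 and 1 and 8 of Pol II. Of 20 genes of energy metabolism, 1 had one-replicate peaks only (5%, beside the same 6.29%), Ppargc1b, with 9 and 0 Sox6 reads in its first intron.

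Lists for other tissues are given beside 6.29% of all genes with one-replicate peaks only. Of 11 fibroblast and matrix genes, Postn (9.09% of the list) had a one-replicate peak only, 89380 bp past the gene, with 13 and 4 Sox6 reads, and Col1a2 had a shared peak only. Of 8 listed cartilage genes, Col11a2 (12.5% of the list) had a one-replicate peak only, 2431 bp past its end. It held 11 and 6 reads of Sox6 against 8 and 9 of input. None of 8 erythroid genes, with a median length of 4023 bp, had a peak of any kind, and 20765 of all 23061 genes had none.

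The genes with the most one-replicate peaks were 2010111I01Rik and Gadd45g with 9 each, Gm3376 and Rptor with 8 and Arhgap18 with 7. Gadd45g, a stress response gene, had 5 replicate 1 only and 4 replicate 2 only peaks and no shared one, all between chr13:51975612 and chr13:52201591 beyond a gene of 1791 bp, with a median ratio of 3.01 in the library without a call. The peaks of Rptor, the mTOR complex subunit raptor, had a median ratio of 1.53. Those of Gm3376 on the Y chromosome had a median of 63.5 reads of both inputs, against 22 and 21 over the 2 one-replicate sets, and a median ratio of 0.86. Windows with more than 41 input reads, the 95th percentile over all Sox6 sites, made up 3.50% of replicate 1 only peaks, 4.67% of replicate 2 only peaks and 7.29% of shared ones.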

How the data were processed

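Per the labels and the study's methods, the authors aligned the reads with Bowtie 0.12.5 at default parameters to NCBI Build 37, kept unique reads, and took SISSRs peaks with fragments set to 450 bp and each experiment's input as background. The deposited files hold positions of reads and peaks, with no count or normalization. Library DNA of 300 to 600 bp had gone through 18 rounds of PCR. Repeated positions made up 2.96% to 7.88% of reads and were kept.

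Here a read counted by its 5′ base, in 450 bp centred on each peak. Genes were taken from GENCODE's annotation of the same build, longest model per name with a RefSeq symbol, and each peak was assigned to the gene that contains its centre or else to the nearest. Python 3.11.15, scipy 1.17.1, pysam 0.24.0, R 4.3.3 and limma 3.58.1 were used. Shares were compared by Fisher's exact test and given exact binomial intervals at 95%. The binomial and limma steps were also run on simulated data, and no support for the counts is drawn from that. Samples were grouped by their labels. The study describes its replicates as independent experiments, each with its own input. Whether they came from separate animals is not given in the sources used here. The limma p-values therefore measure only the spread between these libraries. Those of the binomial test cover the counting of reads within a replicate number, and those of Fisher's exact test the counting of peaks.

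The members, the gene lists, the tests and the rule for named genes were chosen with earlier results of these data known. Named were, for each list, up to 5 genes with one-replicate and no shared peaks by the ratio in the library without a call, Myh13, the 5 peaks of each set with the largest ratio in the calling replicate and in the other one (at least 10 reads there), and the 5 genes with the most one-replicate peaks. Alternatives were other windows, inputs, scalings, limits, added reads, a replicate block and libraries left out. A result on 1 listed gene is not reported here.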

Additional observations from a re-analysis of the deposited data

How the results depend on the processing

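Of 106 values recomputed, 82 kept their direction and their side of the threshold or, for counts and levels, stayed within 1.5 times. None of the location comparisons recomputed passed, but with all transcripts the shares within 1 kb of a gene start were 4.25% (replicate 1 only) and 6.80% (replicate 2 only) in place of 1.61% and 2.41%. Replicate 1 only peaks with more Sox6 than input in replicate 2 numbered 959, and 563 in windows of 200 bp and 292 in the deposited intervals. For replicate 2 only peaks the count of 455 became 300 and 137. Scaled by the reads in windows 2 kb away, it became 23, and 377 once the 5% of windows with most input were left out, an alternative added after the data were seen. That scale was 4.05 times the one by all reads, and 1.27 times without those windows. Median Sox6 in the library without a call was 3.4 RPM in windows of 1000 bp at replicate 1 only peaks and 1.0 RPM in windows of 200 bp at replicate 2 only peaks.

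One-replicate peaks with more Pol II than input numbered 1368, and 2328 with 2 reads added and 899 with 0.1 RPM added. Leaving out 1 library gave 814 to 1497. Those with less numbered 13, and 8 and 144 with the same additions, 27 in windows of 1000 bp, 7 with repeated positions counted once, and 3 to 37 without 1 library. Within the deposited intervals the odds ratios against shared peaks were 0.74 (E-box), 0.81 (Runx) and 0.70 (Tead) for replicate 1 only peaks and 0.72, 0.62 and 0.89 for replicate 2 only peaks. Of these, Runx in the first set and E-box and Tead in the second changed direction. The intervals of one-replicate peaks are shorter, and the cause was not tested further.

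With the replicate number as a replicate block, 1324 one-replicate peaks had more Pol II than input. The deviations of Pol II and input libraries with the same number had r = 0.0045 over 3594 sites. With few reads per window, this r cannot tell whether the libraries are paired. The main fit left the pairing out.

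Median counts of 3 and 6 reads in the library without a call leave weak enrichment undetectable at single peaks, and 2 replicates give the Pol II test few degrees of freedom.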
